A study of Mus musculus with 10 samples.

Results

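The 9 genes of the proneural basic helix-loop-helix (bHLH) family considered here were examined for trimethylation of histone H3 at lysine 27 (H3K27me3) in a mouse lymphoma line and 4 drug-resistant lines derived from it. The genes were Neurog1, Neurog2, Neurog3, Neurod1, Neurod2, Ascl2, Atoh1, Olig1 and Olig2. They were listed by symbol and not ranked by a measured value, but earlier results of these data were known when they were chosen. All 9 were found among the 37310 genes (22380 protein-coding) of the GENCODE annotation of mm9. Each gene was described by its covered bases, meaning the number of base pairs lying in H3K27me3 peaks between 5 kb upstream of its transcription start site (TSS) and the end of the gene.

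The parental line is an Eμ-Myc Cdkn2a-/- B-cell lymphoma culture from the C57BL/6J strain, in which c-Myc is driven by an immunoglobulin heavy chain enhancer. The resistant lines, named R100, R500, R1000 and R4000, came out of it while mafosfamide, an alkylating agent and an in vitro form of cyclophosphamide, was raised over 34 days, and their names give the dose in nM (100, 500, 1000 and 4000). The paper reports a later harvest for each higher dose, so dose and time in culture cannot be told apart. All 5 lines share the transgene and the Cdkn2a deletion, each resistant line is 1 isolate of 1 parental culture, and chromatin was taken from cells growing without the drug. The data analysed here are 1 list of peak positions per line, from 5 of 10 labelled samples, and 5 samples of bisulfite sequencing were not analysed here. A list holds no read count, height or score, so the sequencing depth is unknown, the amount of H3K27me3 within a peak was not measured and no difference between lines could be tested. The parental list covered 1.63 Mb, and the R100, R500, R1000 and R4000 lists covered 3.09, 2.78, 0.988 and 0.658 times that length. Comparisons of covered bases between lines are to be read beside these ratios. Only values said to be scaled or divided by list length take them into account.

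Proneural bHLH proteins are transcription factors that pair with broadly expressed E proteins such as E2a, the product of Tcf3, and bind the E-box, a short DNA element with the pattern CANNTG. They drive progenitors into neuronal, glial, endocrine or secretory fates, while Notch signalling and its Hes and Hey repressors hold them down. H3K27me3 is laid down by polycomb repressive complex 2 (PRC2), which commonly occupies CpG-rich start sites of developmental regulators in lineages that do not use them. B cells use E2a itself, whereas the genes described here act mainly in other tissues.

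Of the 9 genes, 4 (Neurog2, Neurog3, Neurod2 and Olig2) had at least 150 bp covered in all 5 lines, the equivalent of 3 of the 50-bp bins on which the lists are drawn, beside 3.37% of all annotated genes. The segments below are those that peaks of every line shared outside the untranslated regions. They are shown because they mark the part of each locus that no list left out. All are read 5′ to 3′ on the strand of the gene in mm9, the sign after the position gives that strand, and capitals mark CpG dinucleotides.
Neurog2 chr3:127334501-127334750 (+): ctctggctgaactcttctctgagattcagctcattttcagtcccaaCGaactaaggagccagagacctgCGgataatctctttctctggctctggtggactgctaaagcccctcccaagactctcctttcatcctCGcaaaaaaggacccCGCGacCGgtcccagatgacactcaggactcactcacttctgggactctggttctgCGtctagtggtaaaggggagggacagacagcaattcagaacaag
Neurog2 chr3:127336951-127337000 (+): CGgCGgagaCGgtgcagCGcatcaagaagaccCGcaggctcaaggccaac
Neurog3 chr10:61596801-61596852 (+): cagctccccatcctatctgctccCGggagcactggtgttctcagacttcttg
Neurod2 chr11:98190351-98190500 (-): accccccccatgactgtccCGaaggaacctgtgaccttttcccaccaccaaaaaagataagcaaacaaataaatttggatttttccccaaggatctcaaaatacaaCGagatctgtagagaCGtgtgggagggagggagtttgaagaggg
Olig2 chr16:91225951-91226050 (+): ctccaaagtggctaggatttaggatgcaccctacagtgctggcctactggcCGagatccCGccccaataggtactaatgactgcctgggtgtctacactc
The first Neurog2 segment lies 1553 to 1304 bp upstream of the TSS and holds 7 CpGs in 250 bases, while the second lies in the coding sequence and holds 5 in 50. The Neurog3 segment is the coding end of a 300-bp run that continues into the 3′ untranslated region. The Neurod2 segment of 150 bases and the Olig2 segment of 100 bases lie in introns, with 3 and 2 CpGs. An E-box, searched as CANNTG, which reads the same way on both strands, occurred once among these segments, as CAGATG in the upstream segment of Neurog2.

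Neurog1 had peaks in 4 lines and none in R4000, and the longer of the 2 segments shared by those 4 lines lies in its coding sequence, 724 to 873 bp downstream of the TSS, with 9 CpGs in 150 bases and no CANNTG.
Neurog1 chr13:56352651-56352800 (-): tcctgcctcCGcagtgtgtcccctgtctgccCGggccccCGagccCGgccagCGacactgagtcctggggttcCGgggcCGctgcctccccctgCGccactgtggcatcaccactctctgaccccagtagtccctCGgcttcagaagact

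Neurod1, Atoh1 and Olig1 stayed nearly free of peaks. The 250 bases before their start sites are shown, and peaks covered none of these bases in any line. This does not set the 3 genes apart, since Ascl2 also had no peak there, its nearest upstream peak lying 282 bp away in R100. In the parental line no base in the 500 bp upstream was covered at any of the 9 genes. The CpGs and E-boxes of these 250 bases are not given for the covered genes.
Neurod1 chr2:79296909-79297158 (-): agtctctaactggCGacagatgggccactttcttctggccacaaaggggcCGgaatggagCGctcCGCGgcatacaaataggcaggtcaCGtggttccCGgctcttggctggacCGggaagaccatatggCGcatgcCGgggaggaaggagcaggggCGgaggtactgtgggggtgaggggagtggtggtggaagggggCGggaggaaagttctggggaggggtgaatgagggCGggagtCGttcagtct
Atoh1 chr6:64678890-64679139 (+): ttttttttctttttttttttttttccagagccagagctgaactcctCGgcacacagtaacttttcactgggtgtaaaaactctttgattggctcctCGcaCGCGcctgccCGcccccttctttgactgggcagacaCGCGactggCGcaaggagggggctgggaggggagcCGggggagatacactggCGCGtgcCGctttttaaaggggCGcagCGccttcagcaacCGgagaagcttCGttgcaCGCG
Olig1 chr16:91269764-91270013 (+): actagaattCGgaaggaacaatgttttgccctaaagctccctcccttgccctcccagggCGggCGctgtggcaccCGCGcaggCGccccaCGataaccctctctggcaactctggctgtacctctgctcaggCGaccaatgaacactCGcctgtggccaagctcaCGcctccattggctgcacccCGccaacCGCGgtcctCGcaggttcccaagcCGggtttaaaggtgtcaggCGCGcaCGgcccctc
These upstream sequences hold 14, 18 and 18 CpGs for Neurod1, Atoh1 and Olig1, beside a median of 8 over the 250 bases before all 22380 protein-coding start sites. CANNTG occurred 3 times before Neurod1 and did not occur in the windows of Atoh1 and Olig1. The Neurod1 matches were CAGATG, then CATATG nearer the TSS, and between them a CACGTG that overlaps a CpG. The same pattern was present in 63.5% of all such windows.

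In the parental line the family was covered unevenly. Neurog2 had 1600 covered bp, Neurog3 had 1263, Neurog1 had 350, Ascl2 and Olig2 had 250 each, Neurod2 had 200, Neurod1 had 50, and Atoh1 and Olig1 had 0. Neurog2 and Neurog3 together held most of the parental sum of 3963 bp, at 40.4% and 31.9% of it. Only 169 of 22380 protein-coding genes had more covered bases than Neurog2, and 237 had more than Neurog3. Of the 9 genes, 6 reached 150 bp, beside 5.82% of all annotated genes.

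The summed covered bases of the 9 genes were 3963 in the parental line, 14531 and 12363 in R100 and R500, and 3600 and 2897 in R1000 and R4000. The sum was thus 3.67 and 3.12 times the parental value in R100 and R500, and 0.908 and 0.731 times in R1000 and R4000. The whole lists moved in the same order, and after division by the total length of each list the sum was 1.19, 1.12, 0.919 and 1.11 times the parental one, so that the direction for R4000 turned. Without Neurod2 the unscaled ratios were 2.98, 2.73, 0.811 and 0.517, each below the ratio of its whole list. Without Neurog2 (4.78 and 3.37) or without Neurog3 (4.38 and 3.83) the ratios of R100 and R500 stayed above those of the lists. Sums without single genes were chosen after the data were seen. The median over the 9 genes went from 250 bp in the parental line to 1500 and 1400 in R100 and R500, and 450 and 0 in R1000 and R4000, while the median over all annotated genes was 0 in each line. The minimum of 150 bp was met by 6 genes in R100 (15.8% of all genes), by 6 in R500 (12.7%), by 6 in R1000 (6.63%) and by 4 in R4000 (5.39%).

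**Figure D1:**
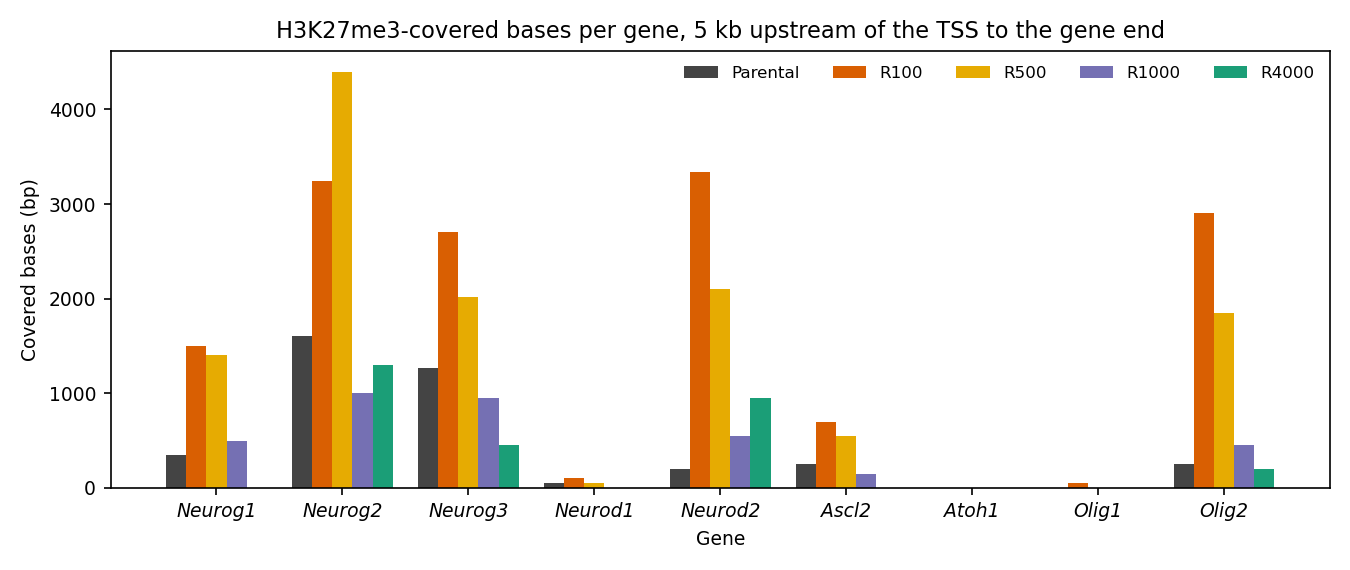
Covered bases in base pairs (vertical axis) for each of the 9 genes (horizontal axis), with 1 bar per line and no error bar, since there is 1 list per line. Neurog2 in R500 is the tallest bar at 4400 bp, Neurod2 in R100 stands at 3334 bp, and Atoh1 has no covered base in any line.

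A gene was counted as wider or narrower when its covered bases differed from the parental line by at least 2-fold, with at least 150 bp in the wider of the lines. In R100, 6 genes were wider (Neurog1, Neurog2, Neurog3, Neurod2, Ascl2 and Olig2), beside 13.9% of all genes, and 0 were narrower, beside 0.461%. In R500 the same genes except Neurog3 were wider, which makes 5 (10.6% of all genes), and again 0 were narrower (0.466%). Much of the annotation has no peak at all, and among the 11791 genes with a covered base in any line the wider shares were 43.8% in R100 and 33.5% in R500. Among protein-coding genes they were 19.1% and 14.3%. With covered bases divided by the length of each list, 2 genes, Neurod2 and Olig2, were at least 2-fold wider in R100 (3.27% of all genes on that scale), and the same 2 in R500 (2.99%).

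In the more resistant lines the calls were few. In R1000 only Neurod2 was wider (2.9% of all genes) and 0 were narrower (1.78%). In R4000 only Neurod2 was wider (2.06%), and Neurog1, Neurog3 and Ascl2 were narrower (3.0%). Among the 11791 genes with a covered base in any line, 9.17% were wider and 5.63% narrower in R1000, and 6.53% were wider and 9.49% narrower in R4000. Neurog2, Neurog3 and Ascl2 lay above the parental value in both R100 and R500 and below it in both R1000 and R4000, an order seen in 2.39% of all genes. Once the lists were scaled to their length, all 3 of these genes lay below the parental value in R100 and R500, and Neurog2 lay above it in R4000. Olig2 also lay above the parental value in R4000 on that scale. There, 2 genes, Neurog1 and Ascl2, were at least 2-fold narrower in R4000 (2.16% of all genes), and only Neurod2 was wider (4.12%). Above the parental value in both R100 and R500, without scaling, were 6 genes, beside 14.8% of all genes.

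The neurogenins are the first proneural factors to act in many neuronal lineages. Neurog2, which commits cortical and other progenitors to neurons, had 1600 covered bp in the parental line, 3247 and 4400 in R100 and R500, and 1000 and 1297 in R1000 and R4000. It was the gene with the most covered bases of the 9 in every line but R100, and the only one whose coverage in R500 exceeded that in R100. In the parental line its bases fell into 10 separate peaks of 50 to 500 bp spread over the whole window. In R500 a single peak of 1950 bp ran from 3 bp upstream of the TSS to 1946 bp downstream and took in all 789 coding bases, and a second of 1550 bp covered the upstream region from 2203 to 654 bp before the TSS. R100 had a peak of 1000 bp that began at the same base as the one in R500. In R1000 and R4000 the widest peaks were 450 and 400 bp, and 200 and 354 of the coding bases were covered. The peaks of Neurog2 lie close together: when gaps of up to 1000 bp were filled, its covered length in R100 and R500 was no longer above the parental one. The values below the parental line also depended on the window, since in the gene body alone Neurog2 had 350 covered bp in both the parental line and R1000 and 500 in R4000.

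Neurog3, the factor that sets aside endocrine progenitors in the pancreas, had 1263 covered bp in the parental line, 2700 and 2013 in R100 and R500, and 950 and 450 in R1000 and R4000. All 642 of its coding bases lay in peaks in the parental line, R100 and R500, whereas 452 did in R1000 and 52 in R4000. A peak over the gene body was present in every line and measured 900 bp in the parental line, 1600 and 1200 in R100 and R500, and 800 and 400 in R1000 and R4000. The last 2 of these ended at the same base, 1362 bp downstream of the TSS. The window of Neurog3 overlaps 2010107G23Rik, so that its covered bases cannot be assigned to 1 gene alone.

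Neurog1, a determination factor of sensory neurons, had 350 covered bp in the parental line, 1500 and 1400 in R100 and R500, and 500 and 0 in R1000 and R4000. In R100 a peak of 1150 bp crossed the TSS, from 226 bp upstream to 923 bp downstream, and covered 693 of 732 coding bases. In the parental line 300 coding bases were covered, in R500 639 and in R1000 400. In R4000 the nearest peak began 2024 bp downstream of the TSS, past the end of the gene. All 350 bp covered in the parental line were also covered in R100.

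The NeuroD factors act after the neurogenins, in differentiating neurons and, for Neurod1, in islet cells. Neurod2 had 200 covered bp in the parental line, 3334 and 2100 in R100 and R500, and 550 and 950 in R1000 and R4000. It was the only gene of the 9 that lay above the parental value in all 4 resistant lines, at 16.7, 10.5, 2.75 and 4.75 times, and it stayed above it in all 4 when lists were scaled to their length. With the window widened to 10 kb on both sides of the gene, R4000 equalled the parental line, and in the 5 kb upstream alone R1000 and the parental line both had 0. The parental peak of 200 bp lay in the intron, and no coding base was covered, whereas of 1149 coding bases R100 and R500 covered 849 and 749, and R1000 and R4000 covered 250 and 600. Up to 50 kb to either side of the TSS, Neurod2 had 1700 covered bp in the parental line, 12000 and 10750 in R100 and R500, and 2000 and 1950 in R1000 and R4000, so that over this wider region R1000 and R4000 lay close to the parental line.

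Neurod1 had 50 covered bp in both the parental line and R500, 100 in R100, and 0 in R1000 and R4000. These are 1 or 2 bins, and none of the 3 peaks lay at the same place as another. The parental one was in the coding sequence, and those of R100 and R500 lay 2942 to 2843 bp and 3192 to 3143 bp upstream. Cerkl overlaps the Neurod1 gene and has its TSS within the window, so these covered bases cannot be assigned to 1 gene alone.

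Ascl2, a factor of the trophoblast and of intestinal stem cells, had 250 covered bp in the parental line, 700 and 550 in R100 and R500, and 150 and 0 in R1000 and R4000. Although coverage in R100 was 2.8 times the parental value, no base was covered in both of these lines. The parental peaks lay 369 to 418 and 1319 to 1518 bp downstream of the TSS, and the widest peak of R100, 450 bp, lay between them. In R4000 the nearest peak was 83.7 kb away, and no peak lay within 50 kb.

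Atoh1, which specifies hair cells of the inner ear, granule neurons of the cerebellum and secretory cells of the gut, had 0 covered bp in all 5 lines. That was so for 68.4% of all annotated genes. No peak lay within 50 kb of its TSS in any line. The nearest was 1913 kb away in the parental line, 314 and 2158 in R100 and R500, and 1807 and 2167 in R1000 and R4000. Only 6.84% of protein-coding genes were farther from a peak in the parental line, and 20.2%, 3.58%, 6.77% and 7.70% were in the other lines in the same order.

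The Olig genes are neighbours on chromosome 16, with 41092 bp between them, and both act in oligodendrocyte development. Olig2, which also specifies motor neurons, had 250 covered bp in the parental line, 2900 and 1850 in R100 and R500, and 450 and 200 in R1000 and R4000. Olig1, which acts in oligodendrocyte maturation, had 50 covered bp in R100 and 0 in the other lines. The difference between the neighbours was therefore largest in R100. Olig2 in R100 was covered by 11 separate peaks of 100 to 600 bp along the window, of which 400 bp lay in its 969 coding bases, and in the parental line, R1000 and R4000 no coding base was covered. A peak close behind the TSS was present in every line and measured 100 bp in the parental line, 500 and 350 in R100 and R500, and 200 in both R1000 and R4000.

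**Figure D2:**
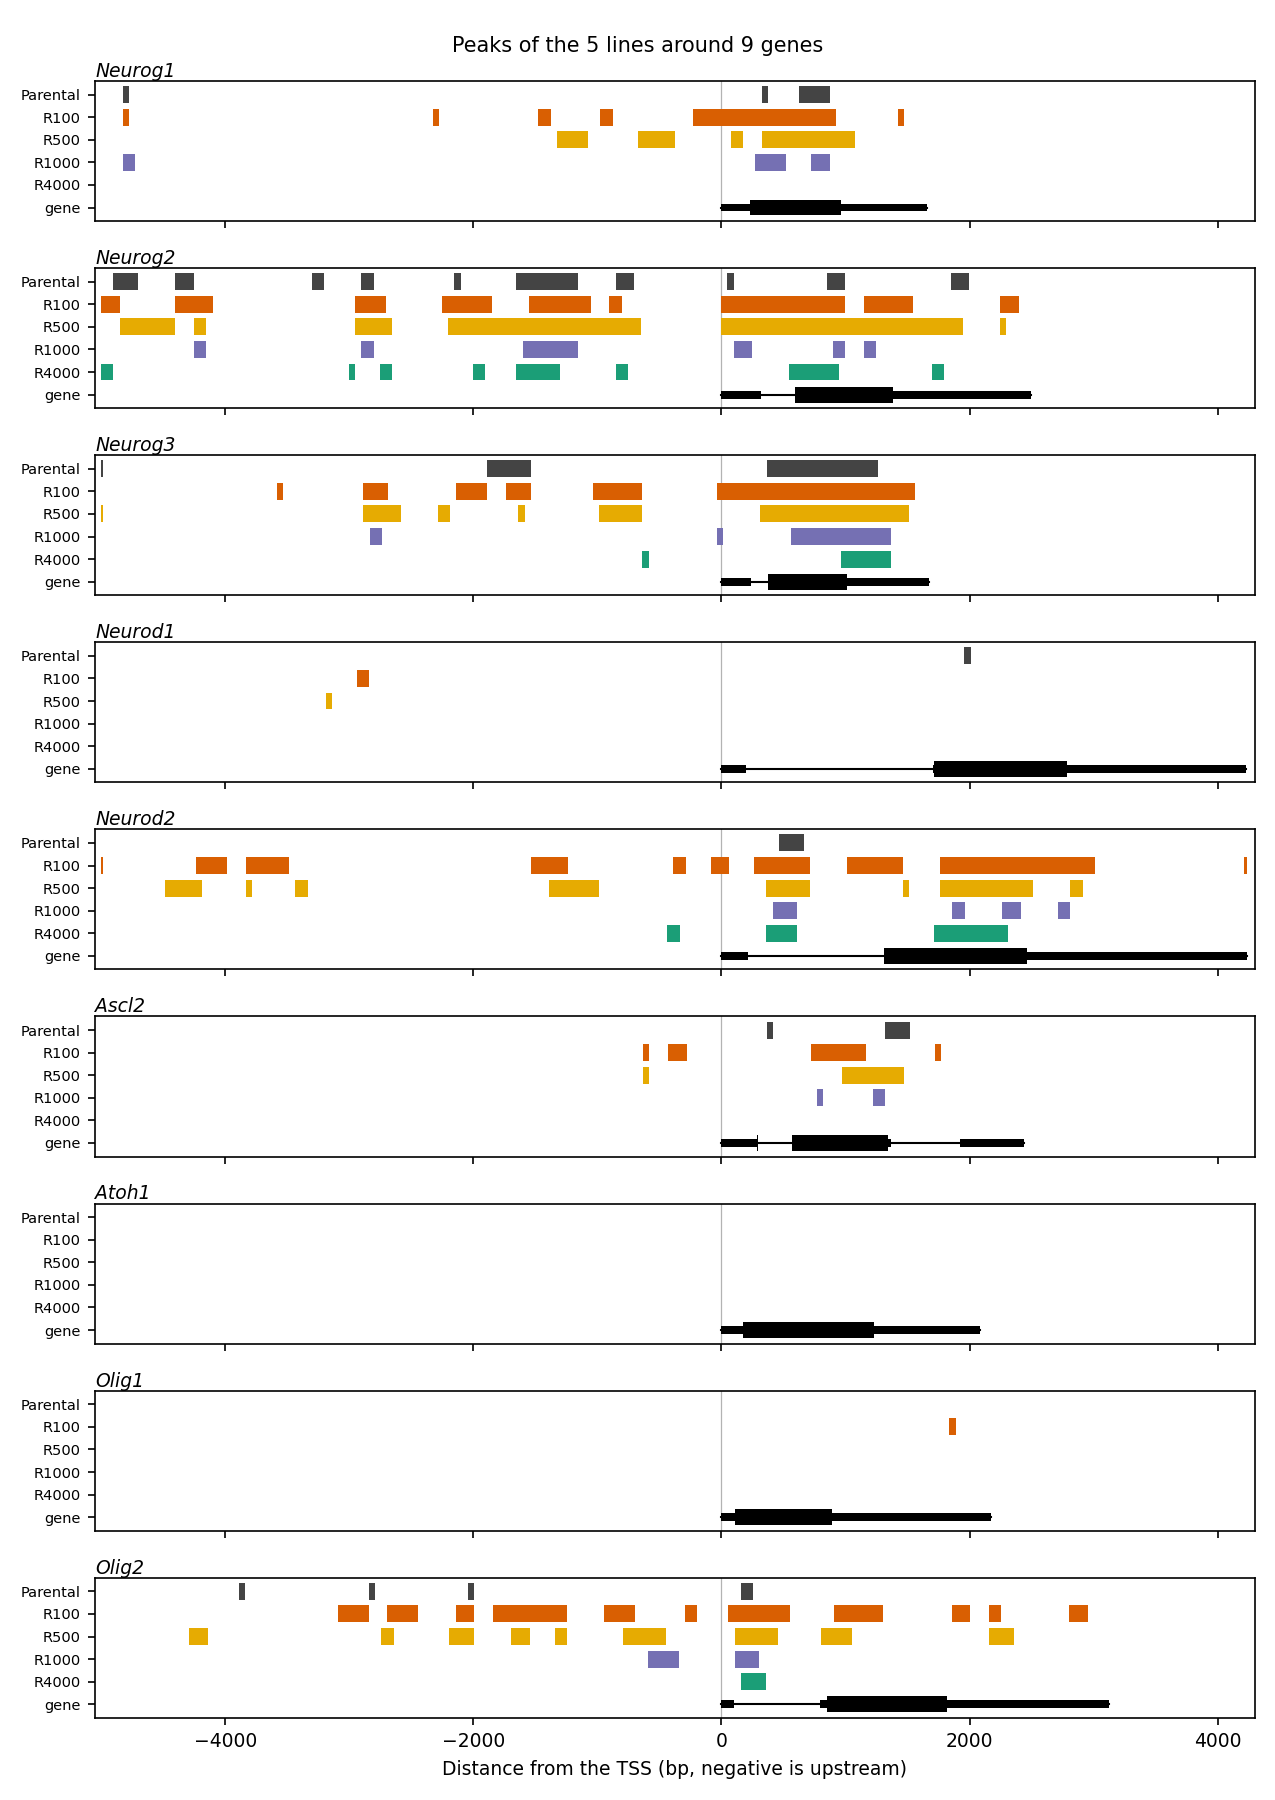
Peaks of each line (coloured bars, 1 row per line) around each of the 9 genes, by distance from the TSS in base pairs, with the gene below as a line, its untranslated regions as thin bars and its coding sequence as thick bars; only the part from 5 kb upstream to the gene end is drawn. The gene bodies of Neurog2, Neurog3, Neurod2 and Olig2 hold a peak in all 5 rows, the rows of R100 and R500 are the fullest, and the Atoh1 panel is empty.

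The genes lie on 8 chromosomes. In mm9 they are Neurog1 at chr13:56351866-56353524 (-), Neurog2 at chr3:127336054-127338549 (+), Neurog3 at chr10:61595838-61597511 (+), Neurod1 at chr2:79292678-79296908 (-), Neurod2 at chr11:98186729-98190962 (-), Ascl2 at chr7:150152727-150155169 (-), Atoh1 at chr6:64679140-64681227 (+), Olig1 at chr16:91270014-91272184 (+) and Olig2 at chr16:91225795-91228922 (+). Apart from Cerkl and 2010107G23Rik, no other protein-coding gene reached into a window, and genes of other types were not searched.

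Next to the start site, the bin downstream of the TSS was covered more than the bin upstream of it when the 9 genes were pooled. In the first 500 bp downstream of the TSS, 9.44% of bases were covered in the parental line, 49.9% and 32.2% in R100 and R500, and 15.0% and 7.51% in R1000 and R4000. In the 500 bp just upstream the same shares were 0% in the parental line, 15.6% and 4.07% in R100 and R500, and 4.29% and 2.22% in R1000 and R4000. Over all 22380 protein-coding genes the downstream bin was covered at 0.939% in the parental line and 6.37% in R100, and the upstream bin at 0.744% and 3.42%. In the parental line no base of that upstream bin was covered at any of the 9 genes. Farther upstream the genes did hold peaks, and the 5 kb before the TSS held 1813 of the 3963 covered bp of the parental line and 6363 of the 14531 of R100.

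**Figure D3:**
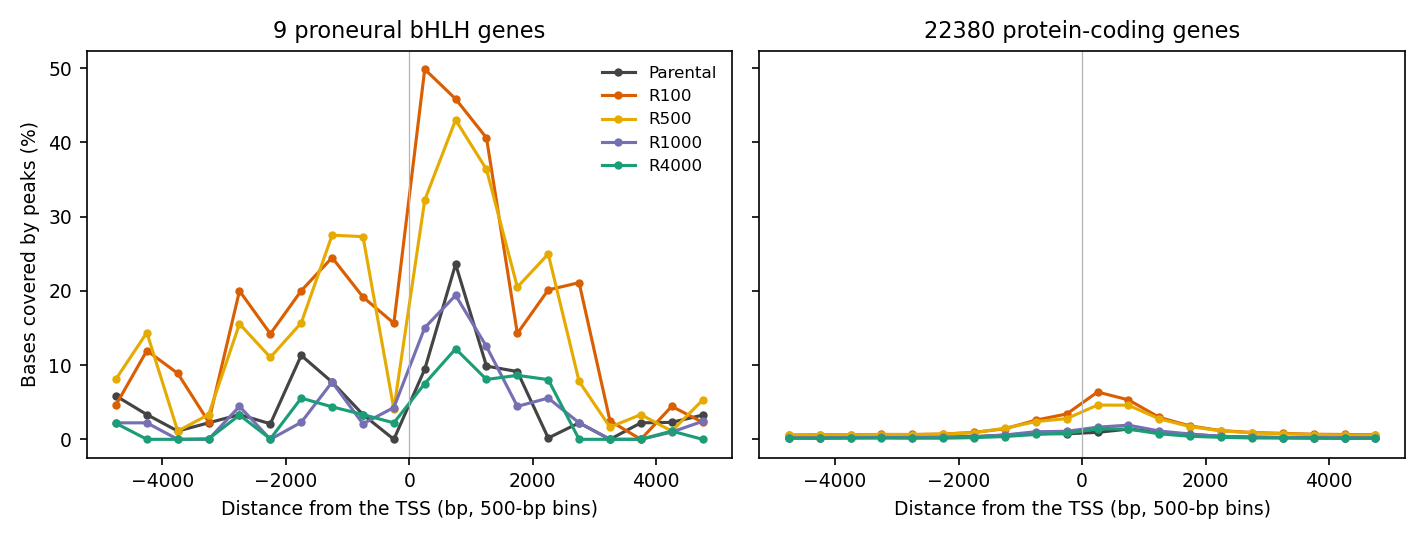
Share of bases covered by peaks (percent, vertical axis) in 500-bp bins by distance from the TSS (horizontal axis), for the 9 proneural genes (left) and 22380 protein-coding genes (right), with 1 line per cell line. In the 9 genes R100 reaches 49.9% in the first bin downstream, while over all protein-coding genes the highest bin is 6.37%.

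Pooled over the 9 genes, coding sequence was covered over 14.6% of its 7974 bp in the parental line, 46.1% and 42.6% in R100 and R500, and 18.2% and 12.6% in R1000 and R4000. Untranslated regions were covered over 4.04%, 24.5%, 17.7%, 5.25% and 3.86%, introns over 11.3%, 36.5%, 25.1%, 8.85% and 11.0%, and the 5 kb upstream over 4.03%, 14.1%, 12.8%, 2.53% and 2.10%, in the same order of lines. The highest of these pooled shares was that of coding sequence in each line, but in the parental line, R100 and R4000 this rested on single genes. Without Neurog3 the parental shares were 7.16% for coding sequence and 11.5% for introns, and without Neurod2 those of R4000 were 5.95% and 7.15%. Introns also came first without Neurod1 in the parental line, R100 and R4000, and without Neurog2 in R4000. In R1000 the coding bases covered (1452 bp) exceeded the parental ones (1167 bp), although the sum over whole windows was lower.

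The number of peaks in the 9 windows was 24 in the parental line, 48 and 36 in R100 and R500, and 20 and 14 in R1000 and R4000. Their median width was 100 bp in the parental line, R1000 and R4000, and 200 and 225 bp in R100 and R500, beside a median of 100 bp over each whole list. Both more peaks and wider peaks thus made up the larger sums of R100 and R500. The widest peak was 900 bp in the parental line, 1600 and 1950 in R100 and R500, and 800 and 600 in R1000 and R4000.

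Peaks of different lines met at the same bases to a differing degree. Of the 3963 bp covered in the parental line, 70.7% and 76.0% were shared by R100 and R500, and 46.7% and 27.8% by R1000 and R4000, beside 54.4%, 57.4%, 34.9% and 24.8% for all bases of the parental list. In the other direction, 19.3% of the bases of R100, 24.4% of R500, 51.4% of R1000 and 38.0% of R4000 were covered in the parental line. The same shares of the whole lists were 17.6%, 20.7%, 35.3% and 37.7%, so that R4000 was close to its whole list. The bases of R1000 lay mostly within those of R100 and of R500 (87.5% in each), and the bases of R4000 did too (82.7% and 88.0%), beside 66.5% and 67.0% of the whole R1000 list and 70.8% and 70.9% of the whole R4000 list. R1000 and R4000 shared 1250 bp, which is 34.7% of the former and 43.1% of the latter, beside 30.2% and 45.3% of the whole lists.

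**Figure D4:**
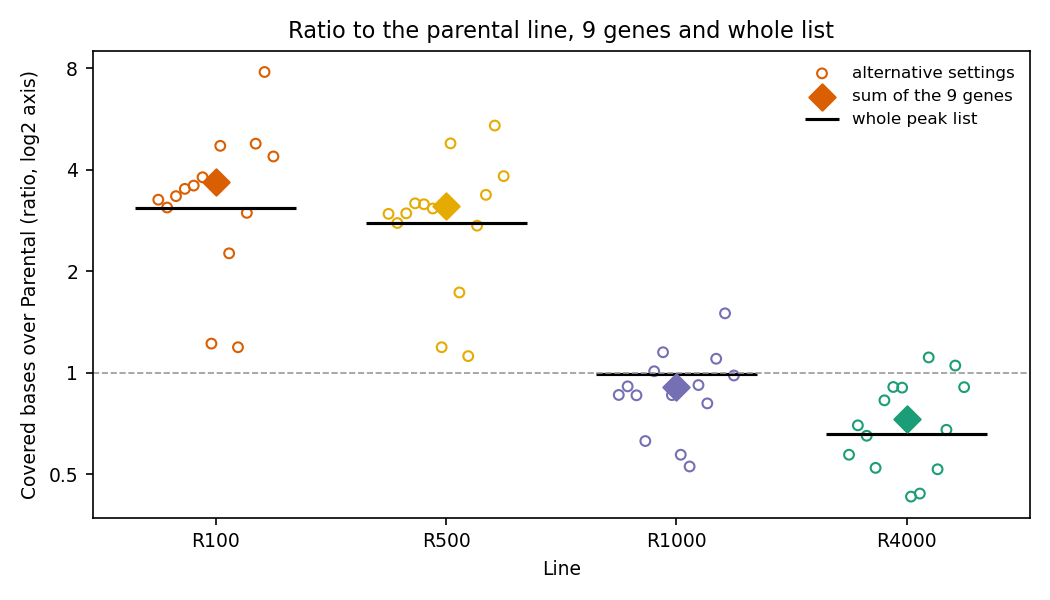
Ratio of summed covered bases to the parental line (vertical axis, log2 scale) in each resistant line, with a filled diamond for the sum of the 9 genes, a black bar for the whole list and open circles for other windows, peak filters, scalings and sums that leave out genes. For R100 and R500 every mark lies above 1, while for R1000 and R4000 the marks lie on both sides of it.

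CpG content around the start sites did not order the genes by coverage. The ratio of observed to expected CpGs in the kb to either side of the TSS was 0.860 at Neurog2, 0.725 at Olig1, 0.703 at Atoh1, 0.682 at Neurog1, 0.676 at Olig2, 0.649 at Ascl2, 0.517 at Neurog3, 0.516 at Neurod1 and 0.466 at Neurod2, beside a median of 0.468 over protein-coding genes. Olig1 and Atoh1 thus followed Neurog2 with hardly a covered base, while Neurod2 stood last with 3334 covered bp in R100. Pooled over the 9 windows, covered bases were richer in CpG than the rest in each line. There were 41.6 CpGs per kb in covered and 34.2 in uncovered bases in the parental line, 55.1 and 29.2 in R100, 50.5 and 31.2 in R500, 57.8 and 33.4 in R1000, and 52.8 and 33.8 in R4000. Gene by gene the covered bases were the richer ones in 4 of the 7 genes with a covered base in the parental line, in 7 of 8 in R100, 5 of 7 in R500, 5 of 6 in R1000 and 3 of 4 in R4000. In the parental line the exceptions were Neurog2, Neurod2 and Olig2, and Olig2 had 24.0 CpGs per kb in covered and 48.6 in uncovered bases.

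**Figure D5:**
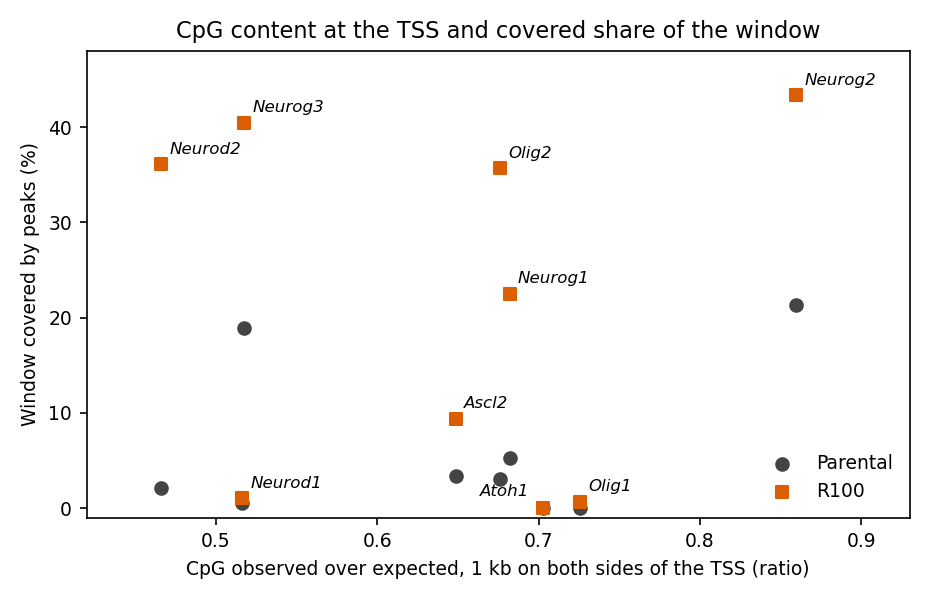
Share of each gene's window covered by peaks (percent, vertical axis) against the ratio of observed to expected CpGs in the kb to either side of the TSS (horizontal axis), with circles for the parental line and labelled squares for R100. Atoh1 and Olig1 lie near 0% at CpG ratios of 0.703 and 0.725, and Neurod2 lies at 36.1% in R100 with a ratio of 0.466.

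Other bHLH genes related to the proneural family, not all of them genes of neural tissue, also fell into covered and uncovered ones. Of 14 such genes, 4 had at least 150 bp covered in the parental line, 6 and 5 in R100 and R500, and 5 and 4 in R1000 and R4000, with a median of 50 bp in R100 and 0 bp in the other lines. All annotated genes met this minimum at 5.82%, 15.8%, 12.7%, 6.63% and 5.39%, in the same order of lines. Protein-coding genes met it at 7.67%, 21.7%, 17.0%, 8.86% and 7.05%. The counts of the lists that follow are to be read beside these shares too. Atoh8, Olig3, Ascl4 and Bhlhe23 reached 150 bp in all 5 lines, and Atoh8 was the widest with 2700, 7700, 5500, 2100 and 1850 bp in the parental line, R100, R500, R1000 and R4000. Ascl3, Neurod6, Bhlhe22, Bhlha15, Ptf1a, Nhlh2 and Ferd3l had 0 covered bp in every line. Olig3 was thus covered in every line while Olig1 was not, and Ascl4 and Ascl2 had covered bases while Ascl3 had none.

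The list of Hes, Hey and related repressors, several of which carry the Notch signal that restrains proneural genes, held covered genes in every line. Of 12 genes, 6 reached 150 bp in the parental line, 12 and 9 in R100 and R500, and 7 and 7 in R1000 and R4000. Hey1, Heyl, Hey2, Hes2 and Hes7 did so in all 5 lines, as did Bhlhe40, a related repressor outside the Hes and Hey genes. Hes1, the main Notch effector in many tissues, had 650 covered bp in R100, none in the parental line and 50 in each of R500, R1000 and R4000.

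Among 18 genes known as targets of proneural factors, 7 reached 150 bp in the parental line, 11 and 12 in R100 and R500, and 9 and 6 in R1000 and R4000. Dll1, the Notch ligand induced by neurogenins, had 2150, 5050, 5650, 2500 and 1700 covered bp in the parental line, R100, R500, R1000 and R4000. Barhl2, Insm1, Dll4 and Eomes also reached 150 bp in all 5 lines, whereas Dcx, Stmn2, Elavl4, Pou4f3 and Pax4 had 0 in each. Elavl3, which like Elavl4 encodes a neuronal RNA-binding protein, had 0 in the parental line, 2150 and 1250 in R100 and R500, and 400 and 350 in R1000 and R4000.

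Of the E proteins and their Id antagonists, 2 of 7 reached 150 bp in the parental line, 5 and 4 in R100 and R500, and 3 and 3 in R1000 and R4000. Tcf3, which encodes E2a, had 200 covered bp in R100, 300 in R500 and 0 in the parental line, R1000 and R4000, and Tcf4 had 0 in each. Id1 and Id2, which hold E proteins away from DNA, were covered in all 5 lines, Id1 with 2046, 2196, 2396, 1996 and 1546 bp and Id2 with 1407, 2607, 2957, 1557 and 2007 bp. Of 15 bHLH genes of mesoderm, muscle and blood, 1 reached 150 bp in the parental line, 5 and 4 in R100 and R500, and 2 and 2 in R1000 and R4000, and only Tal1, a regulator of blood stem cells and erythroid cells, did so in all 5, with 2550, 5600, 6150, 3550 and 3900 bp. Of protein-coding genes, 7.67%, 21.7%, 17.0%, 8.86% and 7.05% reached 150 bp in the same order of lines.

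Markers were read to set the family beside genes a B cell does use. Their counts are to be read beside the same shares of protein-coding genes. Of 10 B-cell markers, 0 reached 150 bp in the parental line, 4 and 5 in R100 and R500, and 2 and 2 in R1000 and R4000, and their summed covered bases were 0, 2700, 1550, 450 and 550 bp. Cd79a, Ms4a1 and Blnk had 0 in every line. Of 14 markers of T, myeloid, erythroid and neuronal cells, 1 reached 150 bp in the parental line, 3 and 4 in R100 and R500, and 1 and 1 in R1000 and R4000, with sums of 250, 3250, 2425, 500 and 450 bp. In the resistant lines most of each sum came from the neuronal marker Tubb3, with 2250, 1800, 500 and 400 bp. The neuronal markers Snap25 and Syt1 had 0 in every line. A peak list shows where the mark was called and not expression, so the labelled cell type was not checked by it. Cdkn2a had 0 covered bp in all 5 lists, which does not bear on its deletion. The part of depth or of the cells' makeup in the wider lists of R100 and R500 was not tested.

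The protein-coding genes whose covered bases ran most like the median of the 9 were Pnmal2, Baiap2l2, Rbfox2, Kank3 and Gm10684. Likeness was the Euclidean distance between log2 values with 50 bp added, over the 5 lists, and was 0.54, 0.62, 0.64, 0.66 and 0.72 for these genes. Pnmal2, the nearest, had 200 covered bp in the parental line, 1450 and 1850 in R100 and R500, and 550 and 0 in R1000 and R4000.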

How the data were processed

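H3K27me3 ChIP-seq was analysed in 5 mouse lymphoma lines. The authors immunoprecipitated chromatin with an H3K27me3 antibody, sequenced 50-bp reads on an Illumina HiSeq 2000 and called peaks against input in tiling windows with Poisson statistics. The submitters' processing notes name Bowtie and mm9. The authors deposited 1 list of positions in base pairs per line, and the threshold of these lists, the counts behind it and the pooling of replicates are not given in the sources used here. The minimum of 150 bp follows the 3 bins that the study asked of a promoter, and its p-value limit per bin was not applied, since the lists hold positions only.

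Samples were grouped by their titles. Peaks written 2 times, as all were in R100 and R500, were counted once. No position ran past a chromosome end of NCBIM37 (mm9), and the annotation was GENCODE vM1. Covered bases were taken with numpy 2.4.6 and pandas 2.3.3 under Python 3.11.15, and the interval step was tested on simulated data, where 0 of 1200 windows differed from a base-by-base count. Sequence was read with pysam 0.24.0, shares of genes were given Wilson intervals with scipy 1.17.1, and figures were drawn with matplotlib 3.10.9.

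All 9 genes were named. Of the other lists, genes covered in all 5 lines or in none were named where a sentence turned on them, at most 8 a list and widest in the parental line first. Tcf3, Hes1, Elavl3 and Tubb3 were named after their values had been seen. Of the listed genes, 1 is not reported here. Ascl5 and Tcf24 did not match a symbol in the annotation. The members and lists were chosen with earlier results of these data known. The single list of each line allowed no test of a difference. The alternatives were other windows, minimum widths, joined peaks, minimums, folds and scalings, and, chosen after the data were seen, sums and shares without single genes and the scaled share of all genes.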

Additional observations from a re-analysis of the deposited data

Results flagged for a closer look

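Covered bases moved in opposite directions against the parental line in the less and the more resistant lines for 3 genes and for the sum of all 9, with 1 list per line, and the difference was not tested. Neurog2 stood at 2.03 and 2.75 times the parental value in R100 and R500 and at 0.625 and 0.811 times in R1000 and R4000. For Neurog2 this changed with the window: in the gene body R4000 had 500 covered bp and R1000 had 350, beside 350 in the parental line, and in the 2 kb to either side of the TSS R4000 had 1047 beside 1000. Neurog3 stood at 2.14 and 1.59 times and then at 0.752 and 0.356 times. Ascl2 stood at 2.8 and 2.2 times, at 0.6 times in R1000, and had 0 covered bp in R4000. With peaks within 1000 bp joined, the order held for neither Neurog3 nor Ascl2. Neurog3 then had 1811 covered bp in R1000 beside 1674 in the parental line, and Ascl2 had 550 in R500 beside 1150. The sum of the 9 genes stood at 3.67 and 3.12 times and then at 0.908 and 0.731 times. The whole lists ran in the same order, and scaled to the length of each list Neurog2, Neurog3 and Ascl2 lay below the parental value in R100 and R500.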

How the results depend on the processing

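No paired analysis was possible because each line has 1 list, and for the same reason no list was left out. Over all values recomputed for sums, counts and ratios, 158 stayed close to the reported one, 78 moved and 6 turned in direction. The ratios above 1 in R100 and R500 held in every setting run, and those of R1000 and R4000 did not. No setting both scaled the lists and left out a gene. The cause was not tested for any of these. Sums in the parental line, R100, R500, R1000 and R4000 were 1813, 6363, 5766, 1137 and 947 bp in the 5 kb upstream alone, 2150, 8168, 6597, 2463 and 1950 in the gene body, 8150, 26600, 24100, 7000 and 4650 with 10 kb on both sides, 1400, 6600, 6700, 800 and 600 for peaks at least 500 bp wide, and 13456, 30401, 23217, 7085 and 5897 with peaks within 1000 bp joined. Within 2 kb of the TSS R100 and R500 had 10350 and 9307 bp, and R100 had 12559 bp when each list kept its 6820 widest peaks.

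Ratios to the parental line turned above 1 for R1000 in the gene body (1.15), with the widest peaks (1.01), without Neurog2 (1.1) and without Neurog2 and Neurog3 (1.5), and for R4000 as a share of the list (1.11) and without Neurog2 and Neurog3 (1.05). They moved to 1.19 and 1.12 for R100 and R500 as a share of the list, to 1.22 and 1.19 over the median ratio of genes covered in both lists, to 4.71, 4.79, 0.571 and 0.429 for peaks at least 500 bp wide, to 2.26, 1.73, 0.527 and 0.438 with peaks joined, and to 0.627 for R1000 upstream. Without Neurog2 the ratio was 4.78 in R100, without Neurog2 and Neurog3 it was 7.8 in R100 and 5.41 in R500, and without Neurod2 it was 0.517 in R4000. The sums without named genes were added after the data had been seen.

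Genes with at least 150 bp numbered 3, 2 and 1 in the parental line, R1000 and R4000 upstream, and 2, 1 and 1 for peaks at least 500 bp wide. At a minimum of 500 bp there were 2 in the parental line and 2 in R4000. Wider genes numbered 3 in R100 and 3 in R500 at 3-fold, and 2 and 2 with lists scaled to length (3.27% and 2.99% of all genes). Wider genes in R1000 numbered 0 upstream, with 10 kb on both sides, for peaks at least 500 bp wide, at 3-fold and for a difference of 500 bp, 2 within 5 kb of the TSS, in the gene body and at 1.5-fold, and 3 with the widest peaks. In R4000 they numbered 0 upstream and with 10 kb on both sides, and 2 in the gene body and with the widest peaks. Narrower genes numbered 1 in R500 with peaks joined. In R1000 they numbered 1 upstream, for peaks at least 500 bp wide, with the widest peaks and for a difference of 500 bp, 2 at 1.5-fold and 3 with peaks joined. In R4000 there was 1 for a difference of 500 bp.

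The unknown depth limits every comparison of covered length, and steps of 50 bp limit genes with 1 or 2 bins, such as Neurod1 and Olig1.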
